A study of Mus musculus with 14 samples.

Results

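The Hoxa cluster genes form a tightly packed run of homeobox genes on mouse chromosome 6, and 9 of them were chosen by name: Hoxa2, Hoxa3, Hoxa4, Hoxa5, Hoxa6, Hoxa7, Hoxa9, Hoxa10 and Hoxa11. Of these 9, 8 had values, among 13406 genes in the doxycycline libraries and 14563 genes in the transduced libraries. These 8 remained after a filter on low values that the authors had applied. Hoxa11 was not analysed here. The members were taken by gene name and not by a cut on values, but with earlier results of these data known. RNA sequencing covered 14 libraries of primary acute myeloid leukaemia cells from spleens of terminally sick C57/BL6 mice. All of them carry a retroviral Tet-Off MLL-AF9 linked to dsRED, which doxycycline switches off, and a second vector with NRASG12D and the Tet-Off activator, introduced into foetal liver cells that were given to lethally irradiated congenic mice. The groups are DOX (n = 4, cells kept with doxycycline for 4 days in vitro), UT (n = 4, untreated cells), Id2-GFP (n = 3, cells given an Id2-GFP retrovirus) and control-GFP (n = 3, cells given a control-GFP retrovirus), and both transduced groups were sorted for GFP 2 days after transduction. No library had doxycycline without the MLL-AF9 switch, so effects of the drug and of MLL-AF9 withdrawal cannot be told apart. The DOX and UT libraries share 4 pair labels, TRIMA2-M1B1, TRIMA2-M3B1, TRIMA2-M4B1 and TRIMA1-M4B1, given here as pairs 1 to 4. The transduced libraries carry MA9 in their titles in place of TRIMA1 or TRIMA2, and share replicate numbers 1 to 3. The titles of DOX pairs 1, 2 and 4, and of no UT library, also carry the suffix R, which is not explained, so what it marks cannot be told apart from the treatment in those pairs.

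HOX genes encode homeodomain transcription factors that lie in clusters and are switched on in the order of their position, which sets identity along the body axis. In blood, HOXA genes are active in stem and progenitor cells and are silenced as myeloid cells mature. Wild-type MLL keeps HOX genes active during development, and MLL fusion proteins such as MLL-AF9 hold the posterior HOXA genes and their partner Meis1 on, a hallmark of this leukaemia. The fusion keeps the CXXC domain of MLL, which binds unmethylated CpG dinucleotides.

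Values are CPM, read counts scaled to the authors' library size, and changes are log2 differences with their SE from limma. The DOX and UT libraries held 17922644 to 25959766 reads each, and the transduced libraries 14051150 to 14948487. Control-GFP replicate 3 stood apart: its chi-square per gene against the other control-GFP libraries was 111 and 146, against 26.6 between those. DOX replicate 4, the TRIMA1 library, differed from the other DOX libraries by 56.4 to 76.0 per gene, against 13.4 to 27.2 among the rest. As a check of the labels, Mll1 had 114, 121, 144 and 131 CPM in DOX and 6369, 1998, 4430 and 2807 CPM in UT, and Mllt3, which encodes AF9, had 5.27 to 6.79 CPM in DOX and 234 to 811 CPM in UT. Reads of the vector and of the cells' own Mll1 and Mllt3 were not separated.

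In the GENCODE M21 models on GRCm38, the 9 members lie within 83.4 kb, chr6:52162417-52245810, all on the minus strand. Hoxa2 lies at chr6:52162417-52164831, Hoxa3 at chr6:52169062-52213336, Hoxa4 at chr6:52189671-52191753 and Hoxa5 at chr6:52201754-52204587. Hoxa6 lies at chr6:52206288-52208722, Hoxa7 at chr6:52214491-52221854, Hoxa9 at chr6:52223100-52231089 and Hoxa10 at chr6:52231197-52240854. Hoxa5, Hoxa6 and Hoxa10 share no exon bases with another gene model. Other genes cover 20.4% of the exon bases of Hoxa7 and 16.0% of those of Hoxa4 on the opposite strand, and Hoxa3 shares 25.4% on the opposite strand and 8.01% on its own. Hoxa2 shares 15.0% and Hoxa9 1.52% on their own strand, so reads in those stretches cannot be assigned to 1 gene.

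RefSeq promoter windows (250 bases before to 50 after a gene's start, GRCm38.p6) were found for 8 of the 9 members, with 2 starts for Hoxa10. The windows of Hoxa6 and Hoxa10, which had the largest and smallest log2 changes after doxycycline on the deposited scale, and of Hoxa9, the member with the highest CPM, are printed 5′ to 3′ on the minus strand, with every CpG in capitals.
Hoxa6, chr6:52208623-52208922: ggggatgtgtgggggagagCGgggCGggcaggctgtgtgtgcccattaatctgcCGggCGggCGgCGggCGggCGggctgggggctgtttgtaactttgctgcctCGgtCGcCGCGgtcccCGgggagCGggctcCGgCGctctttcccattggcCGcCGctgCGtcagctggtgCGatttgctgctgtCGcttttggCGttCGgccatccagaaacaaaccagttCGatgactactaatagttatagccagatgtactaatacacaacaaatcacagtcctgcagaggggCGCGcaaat
Hoxa9, chr6:52227321-52227620: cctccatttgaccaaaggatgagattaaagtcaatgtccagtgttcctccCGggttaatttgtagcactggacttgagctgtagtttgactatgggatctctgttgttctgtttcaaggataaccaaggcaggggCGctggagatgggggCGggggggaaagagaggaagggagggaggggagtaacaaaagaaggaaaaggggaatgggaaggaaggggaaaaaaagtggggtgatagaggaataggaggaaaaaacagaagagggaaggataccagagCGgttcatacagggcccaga
Hoxa10, chr6:52240805-52241104: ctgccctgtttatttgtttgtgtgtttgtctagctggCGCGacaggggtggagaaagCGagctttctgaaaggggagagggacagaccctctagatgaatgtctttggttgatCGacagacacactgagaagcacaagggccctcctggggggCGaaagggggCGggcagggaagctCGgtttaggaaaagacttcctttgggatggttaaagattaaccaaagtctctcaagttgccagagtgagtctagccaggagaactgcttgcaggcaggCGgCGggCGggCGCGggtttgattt
Hoxa10, chr6:52234890-52235189: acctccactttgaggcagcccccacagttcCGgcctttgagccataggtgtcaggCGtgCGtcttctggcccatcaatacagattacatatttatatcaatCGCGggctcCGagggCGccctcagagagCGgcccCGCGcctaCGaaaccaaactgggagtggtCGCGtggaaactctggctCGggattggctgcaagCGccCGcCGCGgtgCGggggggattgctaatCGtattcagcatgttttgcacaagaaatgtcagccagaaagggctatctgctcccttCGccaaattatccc
The dinucleotide CG, which reads the same on both strands, occurred 26 times in the Hoxa6 window, 4 times in the Hoxa9 window, and 12 and 21 times in the Hoxa10 windows. Over all 9 windows of the members the count ran between 4 and 29. Across 32851 windows of all genes the median count was 7, and 94.6% held at least 1 CG. The E-box letters CANNTG, a palindrome and the kind of site bound by the E proteins that Id2 inhibits, were present in 6 of the 9 windows, against 72.3% of all windows. The letters TGATTTA, searched on both strands as a core of the HOXA9 and MEIS1 site, were in none of the 9, against 2.97% of all windows. The Hoxa9 window and the second Hoxa10 window lie inside longer GENCODE models, whose transcripts also start further upstream. Whether CpG content is related to the changes was not tested.

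All 8 measured members were lower after 4 days of doxycycline, with non-overlapping groups and a lower value in each of the 4 pairs (limma, adjusted p under 0.05). The background in this comparison was wide: limma called 33.8% of all 13406 genes lower and 31.3% higher, the groups did not overlap downward for 31.1%, and 38.9% were lower in every pair. The members' median log2 change was -1.64, against -0.03 over all genes. A called fall of at least 1 on the log2 scale was found for 6 of the 8 members, against 5.18% of all genes. A called fall of at least 1.5 was found for 5 of the 8, against 2.23%. With libraries scaled by their totals the all-gene calls were 2702 higher and 6912 lower and the median of all genes moved to -0.27, and the members' median was then -1.88 with 8 of 8 called.

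**Figure D1:**
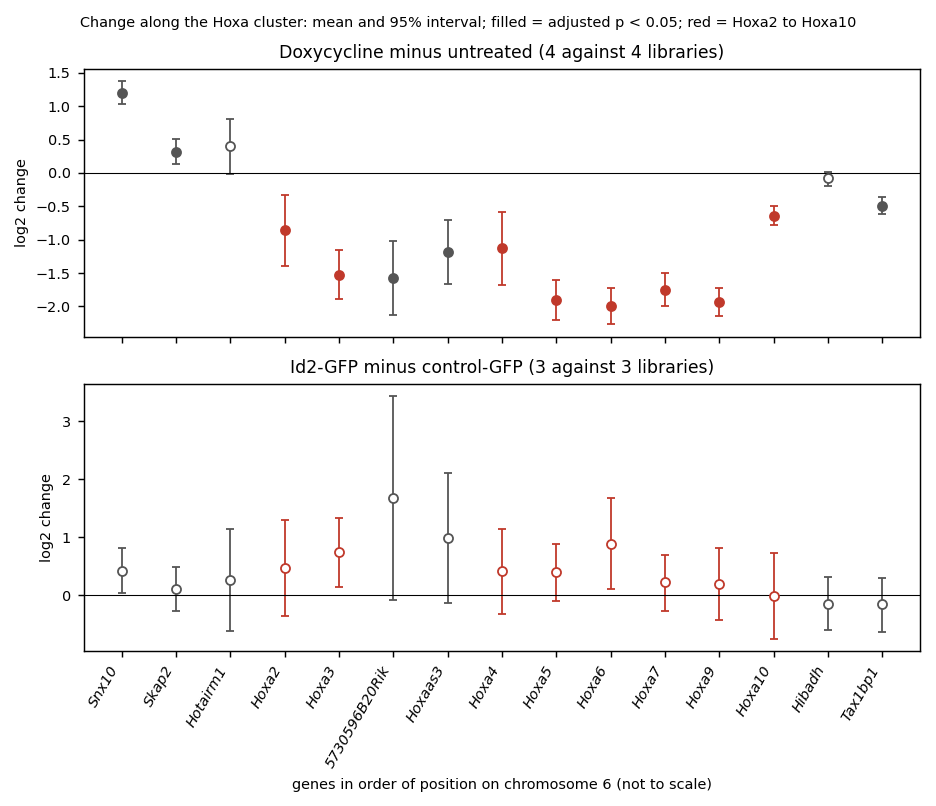
Log2 change (mean and 95% interval, y axis) of the genes in and beside the Hoxa cluster measured in both the doxycycline and Id2 sets, for DOX minus UT above and Id2-GFP minus control-GFP below. The x axis follows position on chromosome 6 (not to scale), except that 5730596B20Rik stands before Hoxaas3, which starts ahead of it. Members are red and filled points passed limma's adjusted p of 0.05: after doxycycline all 8 members lie between -2.0 and -0.64 and are filled, and in the Id2 set none is filled.

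By CPM, which is not corrected for gene length, Hoxa9 was the highest of the measured members in DOX and in UT. Hoxa9, the stem cell and leukaemia factor that acts with Meis1, had 37.0, 41.5, 41.0 and 31.8 CPM in DOX, against 152, 131, 160 and 135 CPM in UT. The highest DOX library was far below the lowest UT library. Hoxa9 averaged 37.8 ± 4.5 CPM in DOX and 144 ± 13.9 CPM in UT (SD, n = 4 each), a 3.82-fold lower level (limma log2 change -1.93 ± 0.10, adjusted p = 4.95e-07).

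Hoxa10, which in blood influences the balance of proliferation and myeloid differentiation, had the smallest log2 change of the 8 on the deposited scale. It had 20.8, 18.9, 21.2 and 18.0 CPM in DOX, against 30.5, 29.8, 31.5 and 30.7 CPM in UT. Both groups were tight and did not overlap. The level was 1.56-fold lower in DOX (log2 change -0.64 ± 0.06, limma adjusted p = 1.97e-05), and pairs 1 to 4 gave -0.55, -0.66, -0.57 and -0.77. With log2(CPM + 4), which shrinks the changes of low genes most, Hoxa2 (-0.28) and Hoxa4 (-0.32) had smaller changes than Hoxa10 (-0.55).

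Among the central members, Hoxa7, which cooperates with Meis1 in mouse leukaemia, had 20.2, 19.7, 16.9 and 15.2 CPM in DOX, against 68.2, 54.4, 65.0 and 54.1 CPM in UT. The groups were apart by more than the spread within either. Its level was 3.36-fold lower (log2 change -1.75 ± 0.11, limma adjusted p = 1.33e-06). Hoxaas3, the antisense RNA whose model overlaps Hoxa7, was also lower, so the part of each in the shared stretch is not known.

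Hoxa6, a homeodomain factor that lies between Hoxa5 and Hoxa7, had the lowest log2 change of the 8 on the deposited scale, close to those of Hoxa9 and Hoxa5. With log2(CPM + 4) it was -1.21, against -1.83 for Hoxa9. Hoxa6 had 3.27, 2.95, 3.40 and 2.81 CPM in DOX, against 13.9, 13.6, 12.2 and 10.3 CPM in UT. The DOX libraries were alike and all far below the UT libraries. The level was 3.99-fold lower (log2 change -2.0 ± 0.12, limma adjusted p = 1.05e-06).

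Hoxa5, needed for lung and axial development, had 4.13, 3.98, 4.11 and 3.76 CPM in DOX, against 17.1, 16.4, 16.5 and 11.3 CPM in UT. UT pair 4, the TRIMA1 library, was lower than the other UT libraries and still far above all DOX libraries. The fold was 3.77 (log2 change -1.91 ± 0.13, limma adjusted p = 2.08e-06), and pair 4 gave -1.59, against -2.04, -2.03 and -1.99 in pairs 1 to 3.

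Per kb of exon, the anterior members had the lowest levels of the 8. Hoxa3, which in the embryo is required for thymus and parathyroid formation, had 3.37, 4.67, 3.40 and 3.11 CPM in DOX, against 11, 12.2, 10.7 and 8.09 CPM in UT. The groups did not overlap, and the level was 2.88-fold lower (log2 change -1.53 ± 0.16, limma adjusted p = 3.04e-05). Hoxa4, an axial patterning gene, had 1.12, 0.934, 0.954 and 0.865 CPM in DOX, against 3.46, 1.91, 1.91 and 1.67 CPM in UT. Here the DOX libraries were alike, and in UT pair 1 stood above the rest. Its fold was 2.19 (log2 change -1.13 ± 0.24, limma adjusted p = 0.00252).

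Hoxa2, the hindbrain and second pharyngeal arch selector gene, had 1.17, 1.92, 1.73 and 1.08 CPM in DOX, against 2.21, 3.34, 2.97 and 2.19 CPM in UT. Pairs 2 and 3 were higher than pairs 1 and 4 with and without the drug, and within each pair DOX was lower. The level was 1.82-fold lower (log2 change -0.86 ± 0.24, limma adjusted p = 0.00979), with within-pair differences between -1.0 and -0.77. Its SE and that of Hoxa4 were the widest of the 8 members.

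**Figure D2:**
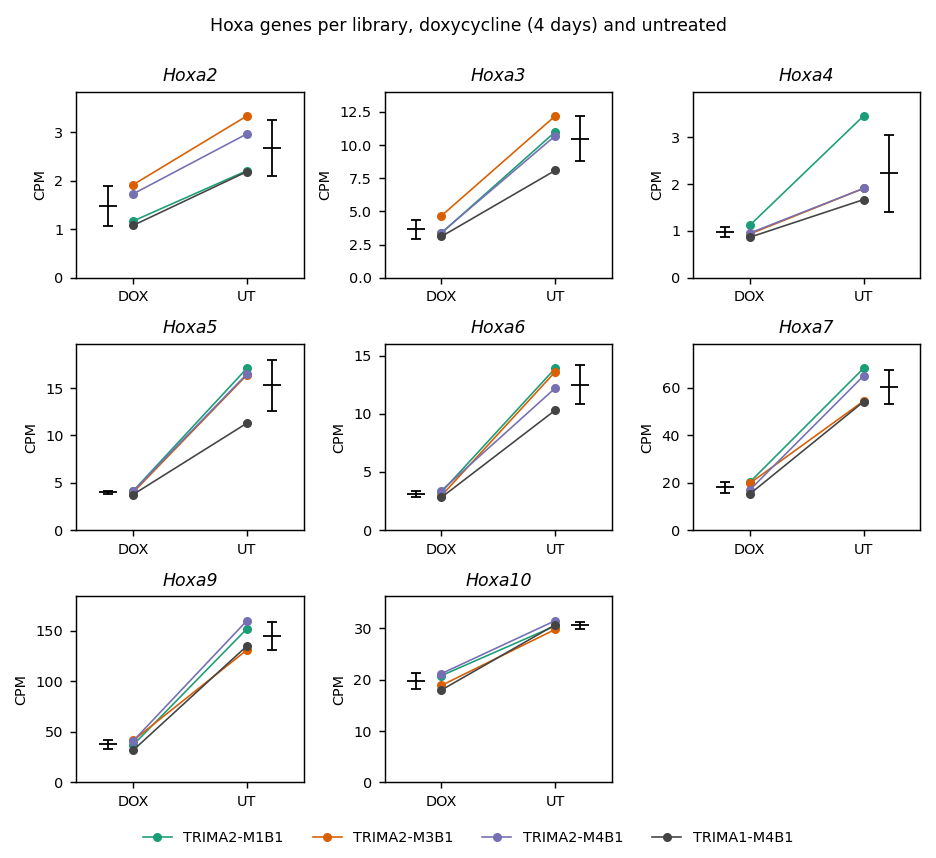
CPM (y axis, from 0) in each DOX library and its UT partner (x axis, joined by lines in the colour of the pair label) for the members, with bars for mean and SD. Every member falls in all 4 pairs, with Hoxa9 at 31.8 to 41.5 CPM in DOX and 131 to 160 CPM in UT.

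The size of the fall varied along the cluster. The 3 middle genes Hoxa5, Hoxa6 and Hoxa7 and the next gene, Hoxa9, had log2 changes between -2.0 and -1.75. The anterior members had smaller changes in no steady order, with -0.86 for Hoxa2, -1.53 for Hoxa3 and -1.13 for Hoxa4. Hoxa10, the last measured member, had -0.64. Hoxa2 and Hoxa4 have low values and the widest SE. The log2 ratio of each member to its next measured neighbour was compared between groups, which removes library scaling. For Hoxa9 to Hoxa10 the ratio was 0.93 in DOX and 2.23 in UT, a difference of -1.30 with groups apart (exact two-sided permutation p = 0.0286, adjusted p = 0.0667 over 7 neighbour pairs). For Hoxa2 to Hoxa3 the difference was 0.66 and for Hoxa4 to Hoxa5 it was 0.78, both with groups apart and the same exact permutation p and adjusted p. The p of 0.0286 is the smallest that 4 against 4 libraries allow. The remaining 4 neighbour ratios overlapped between groups, with differences between -0.39 and 0.19. None of the 7 passed after adjustment. Ratios at the smallest possible p still had an adjusted p of 0.0667, so this test could not decide for them.

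The make-up of the cluster's transcripts differed between DOX and UT. Summed over the 8 members, 88.7 ± 8.18 CPM were found in DOX and 279 ± 24.5 CPM in UT (SD, n = 4 each). Hoxa9 made up 42.5% ± 1.77 of that sum in DOX and 51.8% ± 1.69 in UT. Hoxa10 made up 22.3% ± 1.58 in DOX and 11.1% ± 0.868 in UT. For both genes the shares of the groups did not overlap. The share of Hoxa7 was 18.3% to 22.1% in DOX and 20.7% to 22.9% in UT, with overlap.

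Levels of different genes were compared as CPM per kb of exon, from the union of exons in the gene models. In DOX the order was Hoxa9 (6.78 ± 0.806 CPM per kb), Hoxa7 (6.26 ± 0.815), Hoxa10 (6.03 ± 0.462), Hoxa6 (3.55 ± 0.311), Hoxa5 (2.13 ± 0.0911), Hoxa2 (0.831 ± 0.232), Hoxa4 (0.608 ± 0.0686) and Hoxa3 (0.605 ± 0.117). In UT it was Hoxa9 (25.9 ± 2.50 CPM per kb), Hoxa7 (21.0 ± 2.52), Hoxa6 (14.3 ± 1.88), Hoxa10 (9.37 ± 0.217), Hoxa5 (8.17 ± 1.43), Hoxa3 (1.75 ± 0.289), Hoxa2 (1.51 ± 0.322) and Hoxa4 (1.40 ± 0.515). The ranges of Hoxa9, Hoxa7 and Hoxa10 overlapped in DOX, where these genes cannot be ordered on this length, as did those of Hoxa2, Hoxa4 and Hoxa3. In UT, Hoxa9 overlapped Hoxa7, Hoxa10 overlapped Hoxa5, and Hoxa3, Hoxa2 and Hoxa4 overlapped. On the union of exons, Hoxa6 stood below Hoxa10 in DOX and above it in UT, without overlap in either group. The length used matters for this order. Per kb of the longest transcript, Hoxa3 had 1.40 CPM per kb in DOX, above Hoxa2, and 4.06 in UT. On that length Hoxa9 had 11.7 CPM per kb, Hoxa7 8.87 and Hoxa10 7.69 in DOX, and Hoxa9 44.7 and Hoxa7 29.8 in UT. Hoxa10 then averaged 11.9 in UT, above the lowest Hoxa6 library at 11.8, so Hoxa6 and Hoxa10 overlapped in UT on that length.

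**Figure D3:**
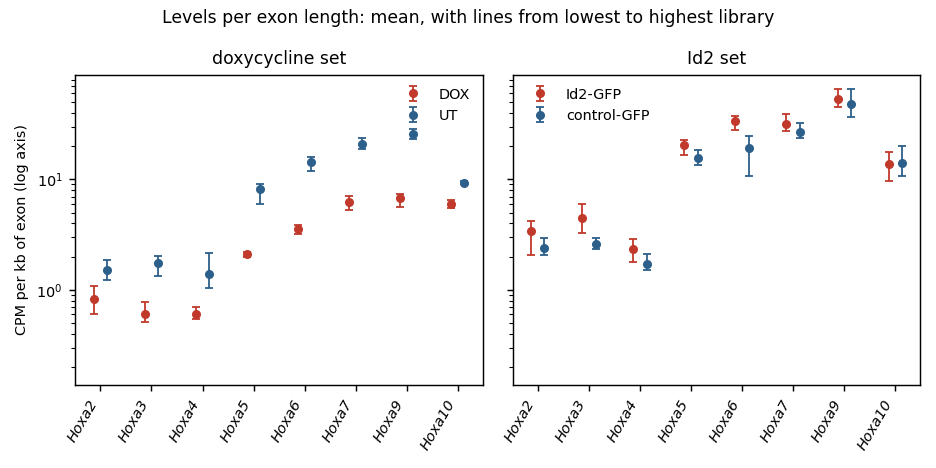
CPM per kb of exon (log y axis) for the members (x axis, in cluster order), with points for group means and lines from the lowest to the highest library, for DOX and UT on the left and Id2-GFP and control-GFP on the right. Hoxa9 has the highest mean in all 4 groups, at 6.78 in DOX and 25.9 in UT, with lines that overlap those of Hoxa7 in DOX and UT, and in the left panel the members lie lower in DOX.

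Genes beside the members did not all move with them. Hotairm1 (Gm15051), an antisense RNA beside Hoxa2, had a log2 change of 0.40 ± 0.18 (limma adjusted p = 0.0819), and it passed with the pairs as a replicate block (adjusted p = 0.0199). Hotairm1 and Hibadh were picked for mention after their values were seen.

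Of 7 measured cluster RNAs and flanking genes, 2 were called higher and 3 lower, against 31.3% and 33.8% of all genes, with a median log2 change of -0.08. Hoxaas3 (2700086A05Rik), antisense in the Hoxa3 to Hoxa7 stretch, was lower, at 1.28 ± 0.275 CPM in DOX and 2.91 ± 0.531 CPM in UT (SD, n = 4 each; log2 change -1.18 ± 0.22, limma adjusted p = 0.000947). 5730596B20Rik, which lies within Hoxa3 on the other strand, was lower too, at 0.817 ± 0.160 CPM in DOX and 2.53 ± 0.674 CPM in UT (log2 change -1.58 ± 0.25, limma adjusted p = 0.000354). Exons on the opposite strand cover 30.7% of the exon bases of Hoxaas3 and 8.71% of those of 5730596B20Rik. The rest of 5730596B20Rik lies between exons of Hoxa3. Strand use is not given, so how far these low values hold reads of the Hoxa genes is not known. Outside the cluster, Snx10, a sorting nexin, rose (1.20 ± 0.08, limma adjusted p = 1.24e-06), and Tax1bp1, an autophagy adaptor, fell (-0.49 ± 0.06, limma adjusted p = 4.24e-05). Skap2, an adaptor of immune receptor signalling, had a log2 change of 0.32 ± 0.08 (limma adjusted p = 0.00657), which was 0.08 with library totals (adjusted p = 0.36) and 0.19 with quantile normalization (adjusted p = 0.0598). Hibadh, a valine catabolism enzyme, had -0.08 ± 0.05 (limma adjusted p = 0.149), and -0.32 with library totals (adjusted p = 0.000445). Of 28 HOX genes of the other clusters, only Hoxb4, a blood stem cell factor, had values, with 3.74 ± 0.723 CPM in DOX and 3.80 ± 0.507 CPM in UT (SD, n = 4 each; limma adjusted p = 0.883).

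The TALE homeodomain proteins bind DNA together with HOX proteins, and of 9 measured genes for them 4 were lower and 4 higher (median log2 change 0.36), where 33.8% of all genes were called lower and 31.3% higher. Meis1, the main leukaemic partner of Hoxa9, was lower at 12.7 ± 2.37 CPM in DOX and 68.9 ± 8.46 CPM in UT (SD, n = 4 each; log2 change -2.45 ± 0.13, limma adjusted p = 6.61e-07). Pbx3, another partner in MLL leukaemia, changed by -1.49 ± 0.12 (limma adjusted p = 5.61e-06). Tgif1, a TALE repressor, rose by 0.92 ± 0.06 (adjusted p = 1.04e-06) and Pbx2, a PBX partner, by 0.61 ± 0.07 (adjusted p = 3.44e-05).

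Of 22 measured regulators of HOX genes, 13 were lower and 2 higher, against 33.8% and 31.3% of all genes, with a median log2 change of -0.32; Mll1 and Mllt3 in this list also measure the fusion vector. Ezh2 and Suz12, members of Polycomb repressive complex 2 that silences HOX genes, fell by 1.01 ± 0.05 and 0.67 ± 0.04 on the log2 scale (limma adjusted p = 5.27e-07 and 1.42e-06). Of 15 measured genes known to be bound or controlled by HOXA9 in blood cells, 13 were lower and 1, the kinase gene Pim1, was higher (1.16 ± 0.19; median of the list -1.39, against -0.03 over all genes). Myb, a progenitor transcription factor, had 85.1 ± 10.7 CPM in DOX and 598 ± 41.6 CPM in UT (SD, n = 4 each; log2 change -2.82 ± 0.09, limma adjusted p = 1.91e-07). Cdk6, a cell cycle kinase, changed by -1.93 ± 0.08, Mef2c, a transcription factor, by -1.27 ± 0.07, and Gfi1b, a repressor needed for erythroid and megakaryocyte development, by -4.54 ± 0.25 (limma adjusted p = 2.41e-07, 7.66e-07 and 7.12e-07).

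**Figure D4:**
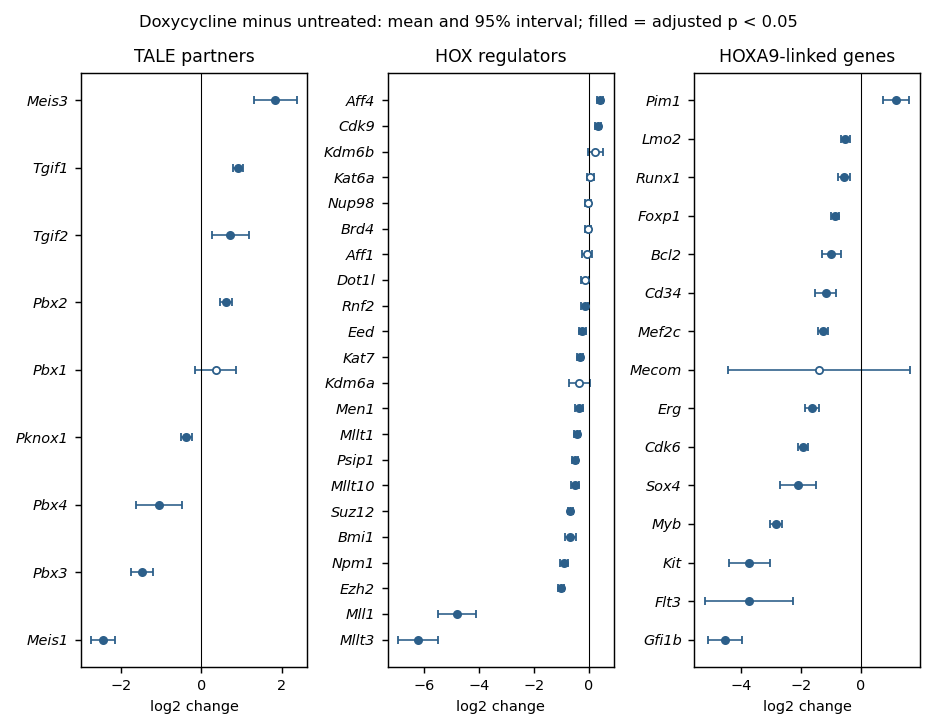
Log2 change of DOX minus UT (x axis, mean and 95% interval) for measured TALE partners, regulators of HOX genes and HOXA9-linked genes (one row per gene), with filled points for limma adjusted p under 0.05. Among 15 HOXA9-linked genes 13 lie left of 0 and filled, and of the 9 TALE genes 4 are lower and 4 higher, where 33.8% of all genes were called lower and 31.3% higher.

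Markers of maturing myeloid cells were higher in the DOX libraries, in which the Hoxa genes were lower. Monocyte and macrophage markers were called higher for 13 of 14 (summed 29626 to 42582 CPM in DOX and 3851 to 7040 CPM in UT), and neutrophil markers for 7 of 7 (summed 4532 to 10042 CPM in DOX and 575 to 2022 CPM in UT). Over all genes 31.3% were called higher. Most of the monocyte and macrophage sum was Lyz2, with a mean of 26854 CPM in DOX and 2987 CPM in UT. Of 10 leukaemia and progenitor markers 5 were called lower and 4 higher, against 33.8% and 31.3% of all genes. Their summed levels were 2520 to 3143 CPM in DOX and 2215 to 2677 CPM in UT, and all 10 were detected. The B cell marker Cd79b, the 1 of 5 with values, summed to 7.09 to 21.5 CPM in DOX and 9.67 to 22.7 CPM in UT, the 2 of 6 endothelial and stromal markers with values (Pecam1 and Pdgfrb, both lower) to 76.4 to 111 CPM in DOX and 293 to 320 CPM in UT, and the T, NK and erythroid markers were not analysed in this set. In these bulk samples fewer cells of a type and less RNA per cell cannot be told apart, and the part of the marker changes in the lower Hoxa levels was not tested. By library, among the genes most like Hoxa9 over the 8 DOX and UT libraries (Pearson r of log2 values, a description) were Fbl (0.9985), Lsm3 (0.9985), Nob1 (0.9984) and Phb (0.9984). Across all genes 13.2% had r over 0.95 with Hoxa9, and the points share the group difference.

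The second comparison set Id2-GFP cells against control-GFP cells. Id2, an inhibitor of the E protein transcription factors, had 1266, 952 and 1631 CPM in Id2-GFP and 25.8, 31.2 and 51.5 CPM in control-GFP (limma log2 change 5.18 ± 0.31, adjusted p = 0.00264; 5.17 with adjusted p = 0.125 without Id2-GFP replicate 1). In the doxycycline comparison Id2 had 80.4 to 92.6 CPM in DOX and 21.4 to 33.5 CPM in UT. No Hoxa member passed limma's adjusted threshold after Id2 transduction, where 0.0137% of 14563 genes were called higher and 0.0% lower. At an unadjusted p under 0.05, 2 of the 8 members were higher and 0 lower, against 1.26% and 1.19% of all genes. The members' median log2 change was 0.41, against -0.03 over all genes, and 7 of 8 were above 0, against 6511 of 14563 genes. Values were higher in every pair for 5 of the 8, against 12.8% of all genes.

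Hoxa3 and Hoxa6 were the 2 members whose groups did not overlap, higher in Id2-GFP, against 3.18% of all genes. Hoxa3 had 19.8, 24.6 and 35.9 CPM in Id2-GFP, against 14.1, 15.2 and 17.7 CPM in control-GFP. The lowest Id2-GFP library was just above the highest control-GFP library. Its log2 change was 0.74 ± 0.26 with a 95% interval of 0.14 to 1.33 (limma unadjusted p = 0.0219, adjusted p = 0.998). It was called in 1 alternative, chosen after seeing the data, with a replicate block and without both libraries of replicate 3 (0.59, limma adjusted p = 0.0248), where 1.74% of genes were called higher.

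Hoxa6 had 24.7, 31.8 and 33.0 CPM in Id2-GFP, against 19.9, 21.7 and 9.38 CPM in control-GFP. Control-GFP replicate 3, the library that stood apart, was the low one. The log2 change of 0.89 ± 0.34 (limma unadjusted p = 0.0308, adjusted p = 0.998) was 0.51 without that library. Hoxaas3 and 5730596B20Rik were lowest in the same library, at 1.12 and 0.595 CPM, against 3.16 to 3.87 and 4.14 to 4.84 CPM in the other control-GFP libraries.

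For the other members the groups overlapped. Hoxa9 had 253, 274 and 367 CPM in Id2-GFP, against 207, 222 and 370 CPM in control-GFP, and replicate 3 was the highest in both groups. Its log2 change was 0.19 ± 0.27 with a 95% interval of -0.43 to 0.82. That interval includes falls, and rises as large as the 0.74 estimated for Hoxa3. Hoxa10 had 45.2, 31.7 and 58.0 CPM in Id2-GFP, against 36.6, 35.5 and 66.0 CPM in control-GFP (log2 change -0.01 ± 0.32, with a sign that varied with the scaling). Hoxa10 was thus also highest in replicate 3 of each group, and its groups overlapped.

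Hoxa5 had 31.0, 41.5 and 42.4 CPM in Id2-GFP, against 26.7, 25.5 and 35.0 CPM in control-GFP (log2 change 0.40 ± 0.21). Hoxa7 had 79.4, 112 and 80.1 CPM in Id2-GFP, against 68.3, 92.9 and 71.7 CPM in control-GFP (0.22 ± 0.21). Both were higher in each of the 3 pairs, by 0.16 to 0.70 on the log2 scale. Hoxa2 had 3.65, 7.04 and 7.49 CPM in Id2-GFP, against 3.68, 3.73 and 5.28 CPM in control-GFP (0.47 ± 0.35), and Hoxa4 had 2.87, 4.60 and 3.68 CPM in Id2-GFP, against 2.43, 3.39 and 2.46 CPM in control-GFP (0.42 ± 0.32). Hoxa4 was higher in all 3 pairs, and Hoxa2 in 2 of 3. Each of these 4 genes had a limma adjusted p of 0.998.

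**Figure D5:**
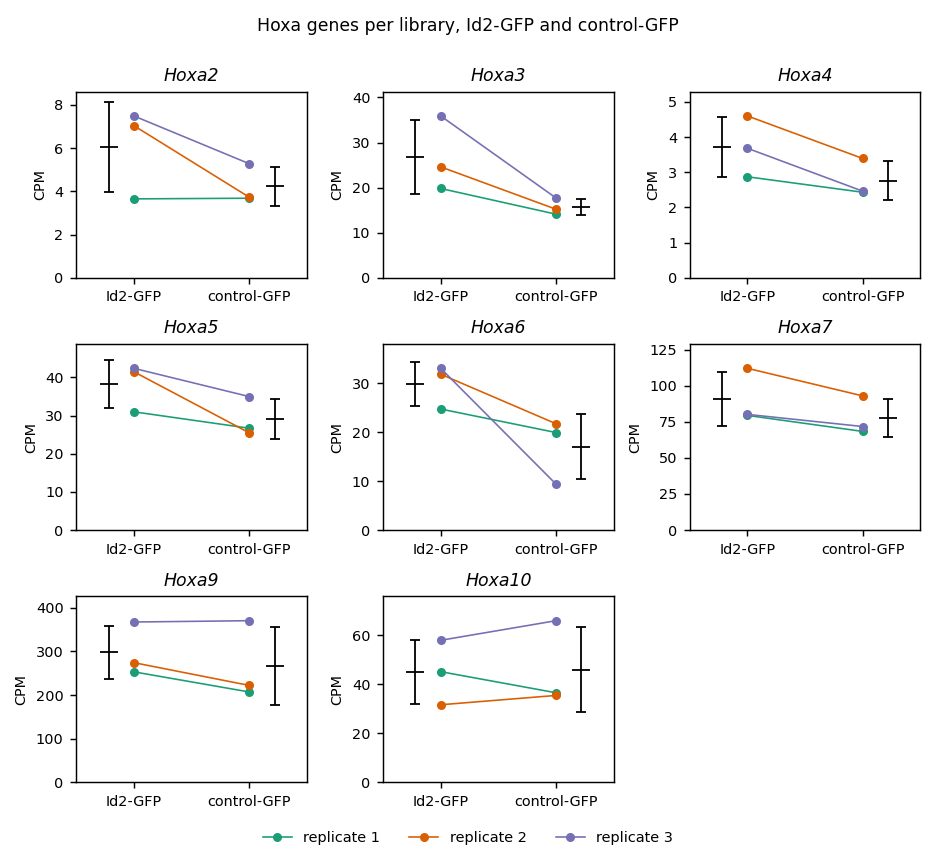
CPM (y axis, from 0) in each Id2-GFP library and the control-GFP library of the same replicate number (x axis, joined by lines) for the members, with bars for mean and SD. Hoxa3 and Hoxa6 are the panels in which the groups do not overlap, and the low control-GFP point of Hoxa6, at 9.38 CPM, is replicate 3.

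The 8 members summed to 538 ± 84.4 CPM in Id2-GFP and 459 ± 105 CPM in control-GFP (SD, n = 3 each). Hoxa9 made up 52.0% to 58.5% of that sum in Id2-GFP and 52.9% to 64.1% in control-GFP, and Hoxa10 6.01% to 9.84% in Id2-GFP and 8.44% to 11.4% in control-GFP, all with overlap. None of the 7 neighbour ratios passed the exact two-sided permutation test, where the smallest p was 0.2 and 3 against 3 libraries cannot go below 0.1. Per kb of exon Hoxa9 was again highest, at 53.4 ± 10.8 CPM per kb in Id2-GFP and 47.7 ± 16.1 CPM per kb in control-GFP. Meis1 had a log2 change of 0.42 ± 0.25, and none of the partner, regulator or HOXA9-linked genes passed limma's adjusted threshold. At an unadjusted limma p under 0.05 were 1 of 8 partners (Tgif1, 0.73 ± 0.18), 0 of 22 regulators and 1 of 15 HOXA9-linked genes (Gfi1b, -1.71 ± 0.27). Over all genes 1.26% were higher and 1.19% lower at that p. Meis1, Tgif1 and Gfi1b were picked for mention here after their values were seen. Monocyte and macrophage markers summed to 1776 to 3128 CPM in Id2-GFP and 1770 to 3014 CPM in control-GFP, with 0 of 11 called and 0 at that p. Of 10 leukaemia and progenitor markers 0 were called, and 3 (Cebpa, Sfpi1 and Mpo, all lower) were at that p. So were 1 of 7 neutrophil markers (Mmp8, higher) and 2 of 2 endothelial and stromal markers (Pecam1 and Pdgfrb, both lower), with 0 called. The markers named here were picked after their values were seen.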

How the data were processed

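Total RNA (Trizol, TruSeq V2 kit) was sequenced, per the labels' protocols. Tools named in the submitters' processing notes, without roles, are TopHat2, HTSeq, limma and CASAVA 1.8.2, with build mm10; strand use is not given in the sources used here. The authors deposited log2 values, 1 table per experiment. Read from the values, each is a log2 CPM of reads plus 0.5 over a scaled library size: removing the offset gave whole reads for 100% of values, to within 0.01 read. Genes with over 1 CPM in 2 or more libraries made up 99.7% of the doxycycline set and 100% of the Id2 set, so the deposited values had been filtered for low genes. CPM printed here has the offset removed; the lowest detectable level, 3 reads, is 0.125 to 0.223 CPM and covers counting error only.

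DOX was compared with UT, and Id2-GFP with control-GFP, each within its own table, with limma 3.58.1 (R 4.3.3, eBayes with trend, two-sided, Benjamini-Hochberg over all genes, adjusted p under 0.05). The offset understates changes of low genes. Nothing says that replicates came from separate animals, so p-values measure the spread between these libraries. Same-numbered libraries deviated together (correlations 0.454 to 0.552 in the doxycycline set and 0.472 to 0.581 in the Id2 set, against -0.545 to -0.013 for other numbers), so a fit with the pair as a replicate block was an alternative.

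Named are all members; from each list of neighbours, other HOX clusters, partners, regulators and HOXA9-linked genes, the genes past the threshold if 6 or fewer and otherwise the 4 with the smallest p; the 5 genes most correlated with Hoxa9; and Id2, Mll1 and Mllt3. A few genes that this rule or the lists would name are not reported here. The members and lists were chosen with earlier results of these data known. Gene models were GENCODE M21 (GRCm38, which mm10 denotes), and promoters were from RefSeq (GRCm38.p6). Python 3.11.15 with scipy 1.17.1 and matplotlib 3.10.9 was used for the rest.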

Additional observations from a re-analysis of the deposited data

Results flagged for a closer look

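Of 58 groups of 4 libraries examined (29 genes), 3 held a library far from the others by Dixon's criterion at the 95% level, and chance gives about 1 in 20. Hoxa5 was low in UT replicate 4, at 11.3 CPM, against 16.4 to 17.1 CPM in the other UT libraries. Skap2 was high in DOX replicate 1, at 305 CPM, against 251 to 256 CPM in the other DOX libraries. Hoxaas3 (2700086A05Rik) was low in DOX replicate 4, at 0.865 CPM, against 1.38 to 1.43 CPM in the other DOX libraries.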

How the results depend on the processing

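All 8 members were called lower after doxycycline without any 1 library, with the replicate block (median -1.64), with the TRIMA2 libraries alone, with log2(CPM + 1), with library totals, median-of-ratios or quantile scaling, without a variance trend and with voom weights on recovered reads, which was chosen after seeing the data. Filters on a mean log2 value of at least 1 and 3 left 6 and 3 members, all called. The members' median was -1.07 with log2(CPM + 4), -1.83 with the filter at 1 and -1.88 with library totals, which called 2702 genes higher and 6912 lower. Leaving out 1 library gave medians between -1.72 and -1.56, with 3934 to 4106 genes higher and 4146 to 4517 lower.

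After Id2, the replicate block called 16 genes higher and 19 lower, and 0 members. With both libraries of replicate 3 also left out, a setting chosen after seeing the data, it called 253 higher (1.74%) and 215 lower, and 1 member, Hoxa3 (0.59, adjusted p = 0.0248); this fit had 2 pairs, so the spread came almost wholly from other genes. Filters at a mean log2 value of 1 and 3 left 1 gene called higher. Leaving out 1 library gave 0 members, 0 to 2 genes higher, 0 to 1 lower and medians between 0.29 and 0.56; Id2 itself was not called without Id2-GFP replicate 1 (5.17, adjusted p = 0.125). The median was 0.24 with log2(CPM + 4). No neighbour ratio passed in any setting, but several of these settings could not give a pass. With the replicate block the exact test on the pairs cannot go below 0.125 after doxycycline and 0.25 after Id2. Without the block, 3 against 3 libraries cannot go below 0.1. Among the members, cluster neighbours, Hoxb4, Id2, Mll1 and Mllt3 the block by itself changed only the call of Hotairm1 after doxycycline. Low members (Hoxa2, Hoxa4) rest on few reads, so their changes are the least precise. Tests that model counts (edgeR and DESeq2) and TMM scaling were not run, since the deposited values are log2. Where values moved, the cause was not tested.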
